A study of Mus musculus with 16 samples.

Results

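The genes of the unfolded protein response and the integrated stress response were examined in mouse liver. A fixed list of 33 gene symbols was looked up in a deposited table of 23258 genes, and all 33 were found. By role they comprise 14 chaperones and folding factors of the endoplasmic reticulum (ER), 8 genes of ER-associated degradation and ER entry, 7 stress sensors and transcription factors, and 4 targets or effectors of the integrated stress response. RNA had been sequenced in 16 libraries from snap-frozen livers of C57BL/6 mice in 4 groups: wild type on chow (n = 3), liver-specific miR-33 knockout on chow (n = 4), wild type on high-fat diet (n = 4) and knockout on high-fat diet (n = 5). The labels give no sex, age, length of feeding or diet composition, and they do not state that each library came from a separate animal, so p-values reflect the spread among libraries, which may be technical. The name of the deposited table includes Alb-Cre, a recombinase driven by the albumin promoter, which is active in hepatocytes. MiR-33 itself was not analysed here, so the knockout label was not checked on its target. Libraries are called by group and a number that only names them. In the library titles, the chow libraries and the high-fat libraries carry numbers from separate series, whose meaning the labels do not give. Effects of diet therefore cannot be told apart from anything else that differs between these series.

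When unfolded proteins gather in the ER, 3 membrane sensors respond: Ern1 (IRE1), which splices the Xbp1 messenger, Atf6, which is cut to release a transcription factor, and Eif2ak3 (PERK), a kinase of the translation factor eIF2. Xbp1 and Atf6 raise the transcription of chaperones and of the machinery that returns misfolded proteins to the cytosol for degradation. Phosphorylated eIF2 lowers general translation and favours that of Atf4, and because other kinases act on eIF2 as well, this arm is called the integrated stress response. Hepatocytes secrete most plasma proteins and hold a large ER. Much of the control in this pathway acts on splicing, cleavage, phosphorylation and translation, which gene-level RNA counts do not measure.

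Promoters of 29 of the 33 genes were matched in RefSeq (30 promoters, build GRCm38.p6, each 300 bases long), and some are shown because they hold known binding elements of the pathway's factors. The ER stress response element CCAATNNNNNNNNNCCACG, searched on both strands, was present in 9 of the 29 genes (Calr, Canx, Creld2, Derl3, Dnajc3, Hsp90b1, Hspa5, Pdia6 and Syvn1) and in 0.119% of all 32851 promoters of this length. The shorter ERSE-II, ATTGG and CCACG parted by any 1 base, was present in Dnajb11 and Herpud1 and in 0.0365% of all promoters. The C/EBP-ATF element TGATGNAA was present in Asns, Atf3, Chac1, Herpud1 and Trib3 and in 3.97% of all promoters. TGACGTGG, the core of the unfolded protein response element, was found in 0 of the 29 genes and in 0.676% of promoters. No matches of different motifs overlapped, also in the Herpud1 promoter, which holds both an ERSE-II and a C/EBP-ATF element. The promoters of 5 genes are given 5′ to 3′ on the strand of the gene, with the matched element in capitals: an ERSE in Hspa5, Pdia6 and Derl3, both elements in Herpud1, and the C/EBP-ATF element in Trib3.
Hspa5 (chr2:34771840-34772139, forward strand): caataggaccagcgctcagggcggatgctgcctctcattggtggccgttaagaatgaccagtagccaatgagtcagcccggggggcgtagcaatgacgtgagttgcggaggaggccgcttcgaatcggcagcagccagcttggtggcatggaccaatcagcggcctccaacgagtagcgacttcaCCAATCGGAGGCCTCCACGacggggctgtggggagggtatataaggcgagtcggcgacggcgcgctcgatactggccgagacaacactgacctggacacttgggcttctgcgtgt
Pdia6 (chr12:17266339-17266638, forward strand): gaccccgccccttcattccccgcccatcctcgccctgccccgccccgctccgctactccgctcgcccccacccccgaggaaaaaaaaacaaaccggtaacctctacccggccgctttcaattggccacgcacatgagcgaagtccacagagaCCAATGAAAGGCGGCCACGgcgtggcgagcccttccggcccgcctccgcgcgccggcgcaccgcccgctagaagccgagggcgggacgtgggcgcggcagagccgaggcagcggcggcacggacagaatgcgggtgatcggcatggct
Derl3 (chr10:75893148-75893447, forward strand): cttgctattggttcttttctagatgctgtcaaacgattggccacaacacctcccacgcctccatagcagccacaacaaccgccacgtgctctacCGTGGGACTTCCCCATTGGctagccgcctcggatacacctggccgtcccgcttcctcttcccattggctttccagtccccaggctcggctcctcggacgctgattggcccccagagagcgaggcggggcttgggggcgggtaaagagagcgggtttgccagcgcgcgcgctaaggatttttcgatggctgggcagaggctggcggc
Herpud1 (chr8:94386179-94386478, forward strand): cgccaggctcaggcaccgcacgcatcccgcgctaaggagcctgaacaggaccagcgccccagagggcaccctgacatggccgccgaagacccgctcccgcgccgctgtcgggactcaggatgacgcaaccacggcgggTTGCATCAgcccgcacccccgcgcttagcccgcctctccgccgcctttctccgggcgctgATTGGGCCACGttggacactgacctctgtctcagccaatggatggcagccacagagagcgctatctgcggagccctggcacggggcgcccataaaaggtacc
Trib3 (chr2:152344011-152344310, reverse strand): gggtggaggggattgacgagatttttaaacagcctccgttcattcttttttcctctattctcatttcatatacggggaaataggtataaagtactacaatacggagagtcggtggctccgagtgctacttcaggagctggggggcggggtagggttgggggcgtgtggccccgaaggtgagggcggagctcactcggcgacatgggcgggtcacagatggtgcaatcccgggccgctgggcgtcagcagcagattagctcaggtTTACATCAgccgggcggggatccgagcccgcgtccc

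The mature miR-33-5p, encoded at chr15:82198127-82198147 on the forward strand (GRCm38.p6, RefSeq), is shown with its seed, bases 2 to 8, in capitals because the study removed it from the liver.
mmu-miR-33-5p: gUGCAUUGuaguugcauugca
A match to this seed was present in the annotated 3′ UTR of 3 of the 33 genes (9.09%), against 1099 of 13160 tested genes (8.35%). These were Dnajb11, a cochaperone of Hspa5, Dnajc3, an inhibitor of eIF2 kinases, and Sel1l, the scaffold of the main ER degradation complex. The sites are given with the seed match in capitals.
Dnajb11: tgatttccagaCAATGCAgacaggagttg
Dnajc3: aaaacacttaaCAATGCAtttcaaaatac
Sel1l: tgggttagaccCAATGCAtggcaaaacca

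Levels are given as CPM, the count of a gene per megaread of scaled library size. Library totals ran from 15888436 to 29469645 estimated counts, and 1 ribosomal RNA gene took between 0.637% and 14.6% of a library. Hepatocyte markers summed to between 92050 and 134800 CPM in the 16 libraries, all labelled liver. High-fat knockout 1 carried 174 CPM of B and plasma cell markers, against 8.81 to 34.1 in the other 15 libraries. In a bulk tissue, fewer cells of a type and less RNA per cell cannot be told apart.

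Per kilobase of exon, the 33 genes spanned a wide range in chow wild-type livers. Calr, a lectin chaperone that binds calcium, stood at 239 CPM per kilobase, rank 179 of 13205 protein-coding genes. Herpud1, a membrane component of the degradation complex, followed at 224 CPM per kilobase, Hspa5 (BiP), the main ER chaperone of the Hsp70 family, at 184, and Hsp90b1, its Hsp90 relative, at 171. The lowest were Derl3 at 0.875, Atf3 at 0.338 and Asns, asparagine synthetase, at 0.142 CPM per kilobase. Asns stood between 0.0842 and 1.29 CPM over the 16 libraries and did not pass the filter on low counts, so 32 genes were tested. Of the sensors, Atf6 stood at 12.8, Ern1 at 7.86 and Eif2ak3 at 3.08 CPM per kilobase, while the factor Xbp1 stood at 54.8 and Atf4 at 30.7.

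In wild-type livers, high-fat diet was compared with chow to ask which stress genes follow the diet. Atf3, Chac1 and Sec61b were higher and Trib3, Herpud1, Sel1l and Atf4 were lower, so 3 of 32 genes rose and 4 fell (edgeR quasi-likelihood test, Benjamini-Hochberg adjusted p under 0.05). Over all 16830 genes tested, 15.2% were called higher and 14.2% lower in this comparison. The diets did not overlap for 4 of the 32 genes that were higher and 5 that were lower, against 18.3% and 17.7% of all genes. A gap between the diets was thus common among all genes. Of the 14 folding genes 0 passed, and 2 had an unadjusted p under 0.05 (40.1% of all genes). DESeq2 called 3 higher and 5 lower among the 32, and limma 3 and 4. The median log2 fold change of the 32 genes was -0.12, against -0.02 over all genes, and without chow wild type 2 it was above 0 (0.031).

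Knockout livers share no library with the wild-type comparison. In them 8 of 32 genes rose on high-fat diet and 4 fell, against 17.4% higher and 16.2% lower over all genes. The diets did not overlap for 4 genes that were higher and 4 that were lower, against 13.5% and 13.0% of all genes. Atf3, Chac1 and Sec61b were again higher and Atf4, Herpud1 and Trib3 again lower. A further 5 genes, Derl3, Eif2ak3, Pdia3, Pdia6 and Sdf2l1, were called higher in the knockout alone (6.14% of all genes), and Ppp1r15a was called lower there alone (5.95%). Sel1l was called lower in wild type alone (3.9% of all genes), and 19 of the 32 genes passed in neither genotype (58.5%). The median log2 fold change was 0.20, against -0.01 over all genes, and it was 0.086 without chow knockout 3 and 0.33 without chow knockout 4. A call in 1 genotype does not show a difference between genotypes: tested directly, 0 of the 32 genes passed for a difference in diet effect between genotypes.

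**Figure D1:**
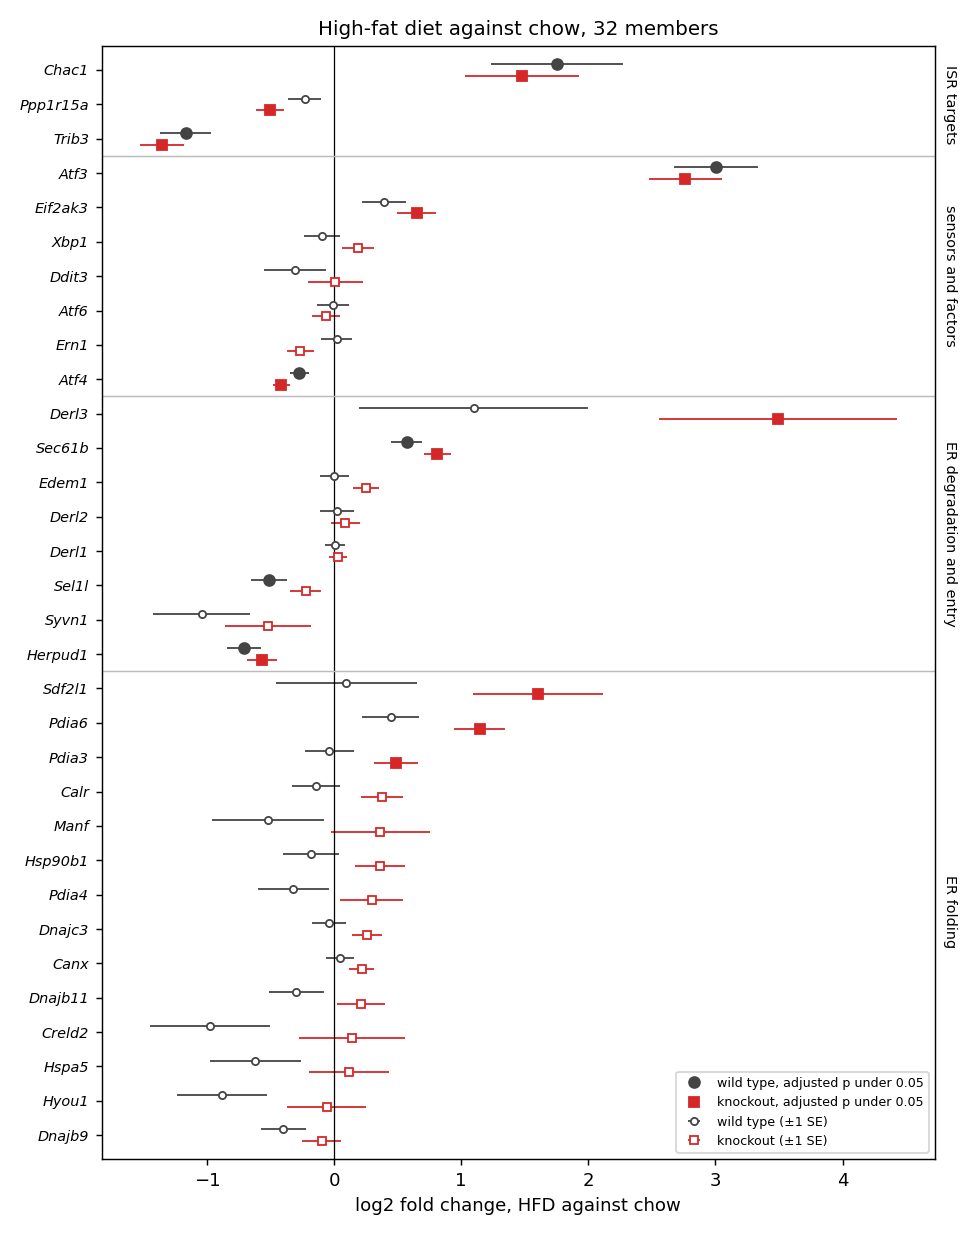
Log2 fold change on high-fat diet against chow (x axis) for 32 genes grouped by role (y axis), in wild-type (circles) and knockout (squares) livers, with bars of 1 standard error; filled symbols passed at an adjusted p under 0.05. Atf3 and Chac1 lie far to the right and Trib3 to the left in both genotypes, and Pdia6, Sdf2l1 and Pdia3 are the folding genes with a filled symbol, in knockout.

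Among transcription factors, Atf3, an immediate responder to stress that Atf4 can induce, had the largest rise that passed in both genotypes. In wild type it stood at 0.894, 0.757 and 0.532 CPM on chow and at 4.66, 4.90, 5.73 and 8.61 CPM on high-fat diet. In knockout it stood at 0.924, 0.689, 0.637 and 0.751 CPM on chow and at 3.46, 5.17, 7.47, 5.96 and 3.54 CPM on high-fat diet. Every high-fat library was above every chow library in both genotypes, as for 18.3% of all genes in wild type and 13.5% in knockout. Its log2 change was 3.004 ± 0.33 (SE) in wild type (adjusted p from edgeR 4.653e-06) and 2.76 ± 0.29 in knockout (adjusted p from edgeR 1.902e-06). Summed immediate-early genes, a separate list of 16 rapidly induced genes, ran from 268 to 299 CPM in chow wild type. In high-fat wild type they ran from 338 to 406 CPM, and 9 of the 16 were called higher (15.2% of all genes). In knockout the sums overlapped between diets, at 269 to 407.5 CPM on chow and 320 to 538 CPM on high-fat diet. There 7 genes were called higher (17.4% of all genes) and 1 lower (16.2%). The part of this list, and of the stellate and macrophage markers described further down, in the rise of Atf3 was not tested.

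Atf4, the central factor of the integrated stress response, was lower on high-fat diet. Its levels were 72.5, 69.9 and 74.4 CPM in chow wild type and 65.0, 55.8, 57.9 and 60.7 CPM in high-fat wild type. In knockout they were 78.8, 83.0, 74.5 and 75.4 CPM on chow and 58.6, 63.8, 54.4, 60.4 and 55.2 CPM on high-fat diet. The diets did not overlap in either genotype, although the change was small. It fell by 0.27 ± 0.08 on the log2 scale in wild type (adjusted p from edgeR 0.01087) and by 0.42 ± 0.07 in knockout (adjusted p from edgeR 0.0001254). Leaving out knockout 1 on high-fat diet together with chow wild type 3 ended the wild-type call (log2 -0.24, adjusted p 0.0572).

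Eif2ak3 (PERK) was higher on high-fat diet than on chow in knockout livers. It stood at 13.7, 13.9, 12.1 and 18.9 CPM on chow and at 17.9, 24.6, 24.6, 23.6 and 24.4 CPM on high-fat diet, where only replicate 1 lay within the chow range. On the log2 scale the change was 0.65 ± 0.15 (adjusted p from edgeR 0.003489). In wild type the levels were 15.4, 23.7 and 16.6 CPM on chow and 27.8, 21.4, 20.2 and 27.95 CPM on high-fat diet, with a log2 fold change of 0.39 ± 0.17 (adjusted p from edgeR 0.1021). Without chow wild type 2 it passed in wild type too (log2 0.60, adjusted p 0.0242). Eif2ak3 shares 485 exon bases with an annotated transcript on the opposite strand, and no source used here says whether counting used strand, so reads of the pair may be mixed. The same limit holds for other members, among them Hsp90b1 with 415 and Derl2 with 231 shared bases on the opposite strand. Ddit3 shares 105 with an annotated gene on its own strand.

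Ern1, Atf6, Xbp1 and Ddit3 (CHOP, a factor linked to cell death under stress) passed in neither genotype. Their log2 fold changes on high-fat diet were 0.02 ± 0.12, -0.01 ± 0.13, -0.10 ± 0.14 and -0.31 ± 0.24 in wild type, in that order. In knockout they were -0.27 ± 0.11, -0.06 ± 0.11, 0.19 ± 0.13 and 0.008 ± 0.22. Ern1 came nearest to passing there (adjusted p from edgeR 0.06274). Ddit3 lay between 3.71 and 5.58 CPM in 15 libraries and at 9.38 CPM in chow wild type 2. Total Xbp1 counts do not show how much of the messenger was spliced.

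Targets of the integrated stress response moved in opposite directions. Chac1, an enzyme that degrades glutathione, stood at 1.505, 1.11 and 3.08 CPM in chow wild type and at 8.45, 5.70, 5.73 and 5.53 CPM in high-fat wild type, with no overlap. In knockout it stood at 0.869, 1.59, 0.779 and 3.84 CPM on chow and at 7.40, 4.53, 3.76, 7.64 and 2.48 CPM on high-fat diet, so that chow knockout 4 lay above 2 high-fat libraries. Its log2 change was 1.75 ± 0.52 in wild type (adjusted p from edgeR 0.01882) and 1.48 ± 0.45 in knockout (adjusted p from edgeR 0.01914). Leaving out chow wild type 1 or 2 ended the wild-type call (adjusted p 0.073 and 0.0857), and the knockout call without chow knockout 1, 2 or 3 (0.0605, 0.0527 and 0.0519).

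Trib3, a pseudokinase that Atf4 and Ddit3 induce, fell. It stood at 9.79, 16.7 and 14.7 CPM in chow wild type and at 7.18, 5.29, 6.02 and 5.84 CPM in high-fat wild type. In knockout the levels were 14.1, 11.5, 17.4 and 12.2 CPM on chow and 3.65, 5.75, 6.25, 5.86 and 5.09 CPM on high-fat diet. All high-fat libraries were below all chow libraries. On the log2 scale the change was -1.17 ± 0.20 in wild type (adjusted p from edgeR 0.0002764) and -1.36 ± 0.17 in knockout (adjusted p from edgeR 1.474e-05). Trib3 and Chac1 both hold a C/EBP-ATF element in their promoter, yet 1 fell and the other rose.

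Ppp1r15a (GADD34), a phosphatase subunit that reverses eIF2 phosphorylation, fell on high-fat diet in knockout livers. It stood at 13.8, 15.4, 14.8 and 16.5 CPM on chow and at 12.9, 10.3, 10.7, 10.4 and 8.96 CPM on high-fat diet, without overlap. Its log2 change was -0.51 ± 0.11 (adjusted p from edgeR 0.001893). In wild type the chow levels of 13.3, 10.6 and 10.6 CPM lay just above the high-fat levels of 9.55, 8.83, 10.5 and 10.4 CPM, and the change of -0.23 ± 0.13 did not pass (adjusted p from edgeR 0.192).

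**Figure D2:**
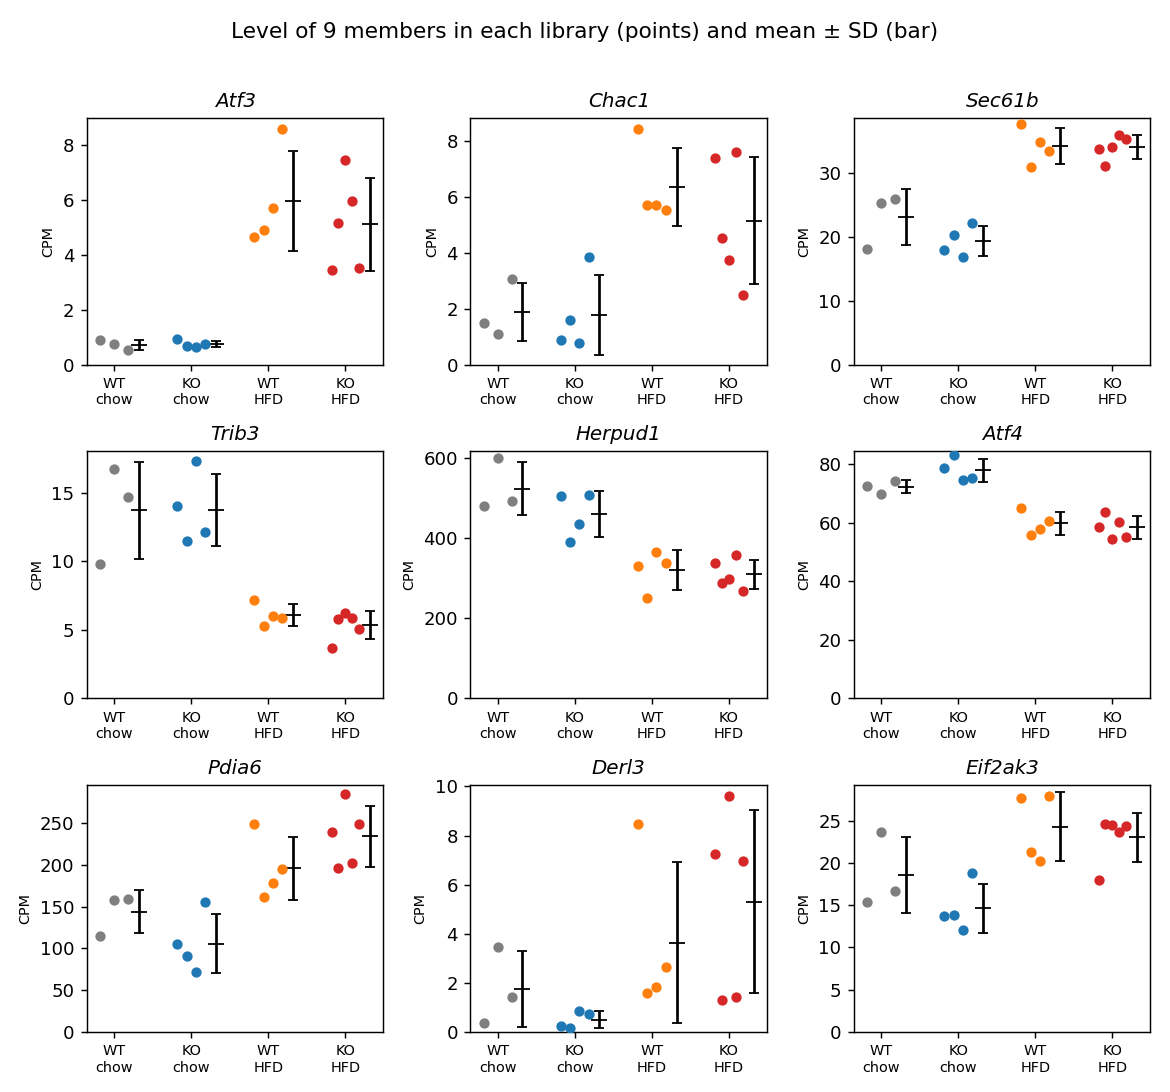
CPM (y axis, from 0) of 9 genes in each library (points), by genotype (WT, wild type; KO, knockout) and diet (HFD, high-fat), with the group mean ± SD beside them. Atf3 reaches 3.46 to 8.61 CPM in the 9 high-fat libraries and stays at or below 0.924 CPM in the 7 chow libraries; Trib3, Herpud1 and Atf4 are lower on high-fat diet, and Derl3 spreads widely within groups.

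Among the degradation and entry genes, Sec61b, a subunit of the channel through which proteins enter the ER, rose in both genotypes. It stood at 18.1, 25.2 and 25.9 CPM in chow wild type and at 37.5, 30.9, 34.8 and 33.4 CPM in high-fat wild type. In knockout it stood at 17.9, 20.2, 16.8 and 22.1 CPM on chow and at 33.6, 30.96, 34.1, 35.9 and 35.2 CPM on high-fat diet. The diets were separate in both genotypes. On the log2 scale the change was 0.57 ± 0.12 in wild type (adjusted p from edgeR 0.001662) and 0.81 ± 0.11 in knockout (adjusted p from edgeR 1.746e-05).

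Herpud1 fell in both genotypes. Its levels were 479.5, 599 and 492 CPM in chow wild type and 329, 249.7, 365 and 339 CPM in high-fat wild type. In knockout they were 504, 389, 436 and 509 CPM on chow and 338, 288, 298, 357 and 269 CPM on high-fat diet. No high-fat library reached a chow library of its genotype. Its log2 change was -0.71 ± 0.13 in wild type (adjusted p from edgeR 0.0006695) and -0.57 ± 0.12 in knockout (adjusted p from edgeR 0.001181).

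Sel1l stood at 166, 221 and 183 CPM in chow wild type and at 150.2, 126, 138 and 119.7 CPM in high-fat wild type. It fell by 0.51 ± 0.14 on the log2 scale (adjusted p from edgeR 0.01059), and leaving out chow wild type 2 ended the call (adjusted p 0.0786). In knockout the change was -0.22 ± 0.12 (adjusted p from edgeR 0.1741), and it passed without chow knockout 3 (log2 -0.32, adjusted p 0.0498). Its partner Syvn1 (HRD1), the ubiquitin ligase of the complex, changed by -1.04 ± 0.38 in wild type and -0.52 ± 0.34 in knockout, and neither passed (adjusted p from edgeR 0.05699 and 0.2561). Edem1, which targets misfolded glycoproteins, and Derl1 and Derl2, membrane proteins of the exit route, passed in neither genotype.

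Derl3, another derlin, had the largest fold in knockout, and its levels varied widely between libraries. It stood at 0.217, 0.172, 0.850 and 0.707 CPM in chow knockout livers and at 7.25, 1.29, 9.59, 1.43 and 6.97 CPM on high-fat diet. The chow values rest on 3.82 to 15.6 estimated counts per library. The diets did not overlap, and the log2 fold change was 3.49 ± 0.93 (adjusted p from edgeR 0.01138), but limma did not call it (log2 3.29, adjusted p 0.0875). In wild type Derl3 stood at 0.376, 3.44 and 1.42 CPM on chow and at 8.48, 1.60, 1.81 and 2.66 CPM on high-fat diet, with a log2 fold change of 1.10 ± 0.90 (adjusted p from edgeR 0.3922). That value was 0.23 without high-fat wild type 1 and 2.08 without chow wild type 2. B and plasma cell markers, which peaked in high-fat knockout 1 at 174 CPM, stood at 23.98 and 21.98 CPM in high-fat knockout 3 and 5, where Derl3 was 9.59 and 6.97 CPM. Without high-fat knockout 1 the log2 fold change in knockout was 3.38 (adjusted p from edgeR 0.0189). The part of B and plasma cells in the level of Derl3 was not tested.

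Of the folding genes, 3 of 14 rose on high-fat diet in knockout livers (17.4% of all genes) and 0 fell (16.2%). An unadjusted p under 0.05 was reached by 6 of the 14 (43.7% of all genes). Pdia6, a protein disulfide isomerase, stood at 105, 90.9, 72.1 and 156 CPM on chow and at 239, 197, 286, 203 and 249 CPM on high-fat diet. The diets were separate, and the log2 fold change was 1.15 ± 0.20 (adjusted p from edgeR 0.0004931). In wild type Pdia6 stood at 115, 158 and 159.6 CPM on chow and at 249, 162, 179 and 196 CPM on high-fat diet, again without overlap, and its change of 0.45 ± 0.22 on the log2 scale missed the threshold (adjusted p from edgeR 0.1515).

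Sdf2l1, an ER protein that works with Hspa5 and its cochaperones, stood at 6.63, 6.16, 3.82 and 19.2 CPM in chow knockout and at 34.2, 15.4, 38.2, 18.1 and 32.6 CPM in high-fat knockout. Chow knockout 4 lay within the high-fat range. On the log2 scale the change was 1.60 ± 0.51 (adjusted p from edgeR 0.02785), against 0.10 ± 0.55 in wild type (adjusted p from edgeR 0.9153). Pdia3, a disulfide isomerase for glycoproteins, stood at 263, 235, 218 and 371 CPM on chow and at 382, 306, 469, 323 and 423 CPM on high-fat diet in knockout. Here too chow knockout 4 overlapped the high-fat libraries, and the log2 fold change was 0.49 ± 0.17 (adjusted p from edgeR 0.03757), against -0.04 ± 0.19 in wild type (adjusted p from edgeR 0.907). Both calls were lost without chow knockout 1, 2 or 3, without high-fat knockout 3 or 5, and when knockout 1 on high-fat diet and chow wild type 3 were both left out, with adjusted p between 0.052 and 0.0765 for Sdf2l1 and between 0.0599 and 0.112 for Pdia3.

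The remaining 11 folding genes passed in neither genotype. Hspa5 stood at 541, 1155 and 641 CPM in chow wild type and at 746, 391, 409 and 481 CPM in high-fat wild type. In knockout it stood at 531, 479, 329.7 and 889 CPM on chow and at 506, 464, 795, 490.2 and 767 CPM on high-fat diet. The groups overlapped widely, with log2 fold changes of -0.62 ± 0.36 in wild type and 0.12 ± 0.32 in knockout. Of all 14 folding genes, 3 had a fold change above 0 in wild type and 12 in knockout, against 48.0% and 49.3% of all genes. These genes varied together between libraries, so they are not independent.

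The folding genes varied together from library to library within each group. In chow wild type, library 2 held the highest value for 13 of the 14 genes, in chow knockout library 4 for 14, in high-fat wild type library 1 for 14, and in high-fat knockout library 3 for 13. The same libraries held the highest value for 33.1%, 25.6%, 28.1% and 19.0% of all genes tested. The lowest values were shared as well, with chow knockout 3 lowest for 14 of 14 and high-fat wild type 2 for 12. Summed over the 14 genes, the level was 3119, 4917 and 3631 CPM in chow wild type, 2986, 2791, 2317 and 4277 CPM in chow knockout, 4366, 2851, 2988 and 3251 CPM in high-fat wild type, and 3783, 3174, 4794, 3262 and 4393 CPM in high-fat knockout. The highest library exceeded the lowest 1.58, 1.85, 1.53 and 1.51 times in those groups, and the 4 groups overlapped. This describes libraries picked for their rank, and it carries no test.

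**Figure D3:**
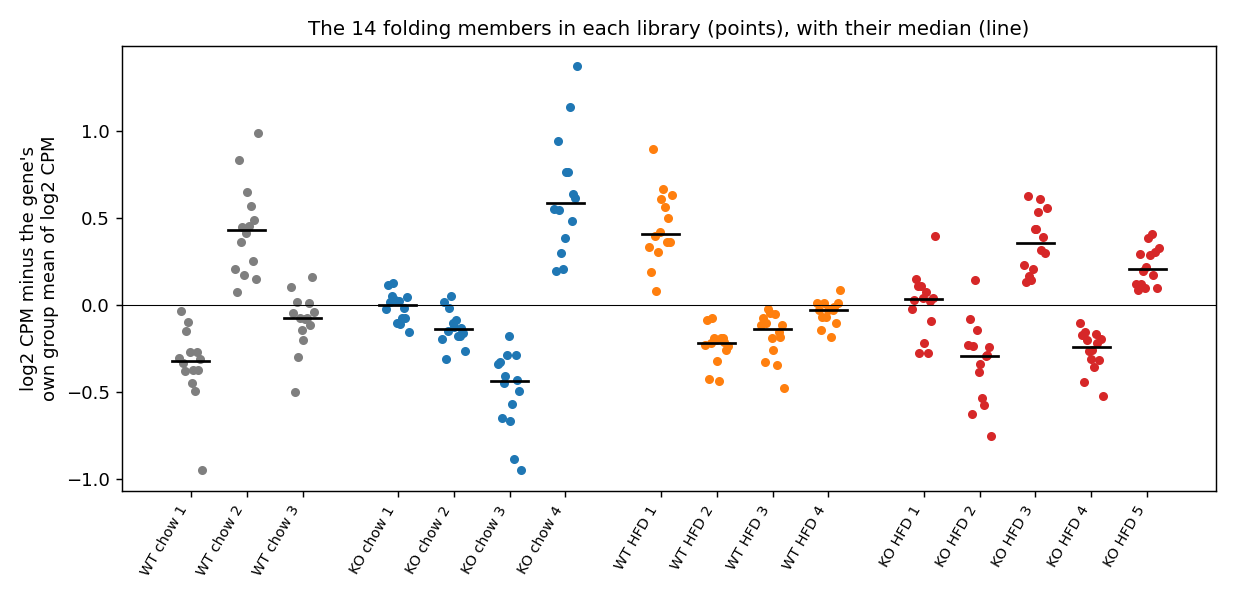
Log2 CPM of each of the 14 folding genes minus its own group mean (y axis) in each of the 16 libraries (x axis), with the median as a line. In chow wild type 2, chow knockout 4, high-fat wild type 1 and high-fat knockout 3 nearly all points lie above 0, and in chow knockout 3 all lie below.

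Degradation and entry genes followed the same libraries in part, with 7, 6, 7 and 4 of 8 highest in those 4 libraries, while the sensors and factors did so for 4, 3, 5 and 2 of 7. Hspa5, Hsp90b1, Pdia3, Calr, Dnajb11 and Hyou1, an ER chaperone of the Hsp70 family, were highest and lowest in the same libraries as the folding genes' sum in all 4 groups. These genes are part of that sum, so the match is partly fixed in advance. Cytosolic heat shock genes, a separate list, were highest in those libraries for 16, 11, 15 and 10 of 20. The ribosomal RNA gene took 13.3%, 14.1%, 5.4% and 1.13% of these libraries. Kupffer cell markers ran opposite to the folding genes in wild type. They summed to 175 CPM in chow wild type 2 and to 353.5 CPM in chow wild type 1, the library with the lowest folding sum, which held the highest value for 14 of 14 markers. On high-fat diet they summed to 432 CPM in wild type 1 and to 793 CPM in wild type 2, which had the lowest folding sum and was highest for 13 of 14 markers. Hepatocyte markers went with the folding genes only in part. High-fat wild type 1 was highest for 13 of 16 and high-fat wild type 2 lowest for 14 of 16. The largest hepatocyte sum on that diet in wild type was in library 4, at 112700 CPM against 111200 CPM in library 1. Chow wild type 2, chow knockout 4 and high-fat knockout 3 were highest for 7, 4 and 1 of the 16 markers. In knockout the Kupffer sums of chow 4 and high-fat 3, 371 and 484 CPM, lay inside their groups' ranges of 329 to 385.5 and 416 to 779 CPM. Of the knockout libraries with the lowest folding sums, chow 3 had the highest Kupffer sum of its group (385.5 CPM) and high-fat 2 the lowest (416 CPM). The part of tissue make-up, handling or feeding state in the shared variation was not tested.

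Knockout was compared with wild type on each diet to ask what the loss of miR-33 does to these genes. No gene of the 32 passed on high-fat diet or on chow, nor did any in the mean over the diets or in the difference between them, by edgeR, DESeq2 or limma. Few genes passed at all: 0.00594% of those tested on high-fat diet, 0.00594% on chow, 0.0178% in the mean and 0.0% in the difference. At an unadjusted p under 0.05, edgeR counted 0 of 32 genes on high-fat diet (3.81% of all genes), 2 on chow (5.95%), 1 in the mean (3.48%) and 1 in the difference (6.6%), so these counts lie near the background.

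On chow, the smallest p belonged to Ppp1r15a, with a log2 fold change of 0.39 ± 0.13 (adjusted p from edgeR 0.773). Its 4 knockout libraries at 13.8 to 16.5 CPM lay above the 3 wild-type libraries at 10.6 to 13.3 CPM. Such a gap was seen for 3.07% of all genes. Calr followed at -0.41 ± 0.19, with 494, 438.5, 397.5 and 738 CPM in knockout and 550.2, 784 and 729.8 CPM in wild type (adjusted p from edgeR 0.8272). Sec61b, Pdia6 and Eif2ak3 had log2 fold changes of -0.25 ± 0.12, -0.44 ± 0.22 and -0.34 ± 0.18. Sec61b ran from -0.40 without chow wild type 1 to -0.16 without chow wild type 3, Pdia6 reached -0.69 without chow knockout 4, and Eif2ak3 was at -0.12 without chow wild type 2. On high-fat diet the 5 smallest p belonged to Edem1 (0.17 ± 0.10), Dnajc3 (0.19 ± 0.12), Hsp90b1 (0.29 ± 0.20), Pdia6 (0.26 ± 0.20) and Creld2 (0.53 ± 0.42), all with an edgeR adjusted p of 0.9999. Most of these changes are under 2 standard errors, so the tests neither call a difference nor show that the genotypes are alike.

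In the mean over both diets, Ppp1r15a had a log2 fold change of 0.25 ± 0.09, followed by Eif2ak3 at -0.21 ± 0.12, Sec61b at -0.13 ± 0.08, Dnajb9, a cochaperone of Hspa5, at -0.17 ± 0.12, and Herpud1 at -0.12 ± 0.09. The difference of the knockout effects, high-fat minus chow, was 0.70 ± 0.30 for Pdia6, 0.52 ± 0.25 for Calr, 0.52 ± 0.26 for Pdia3, 1.51 ± 0.74 for Sdf2l1 and 0.54 ± 0.29 for Hsp90b1. The edgeR adjusted p of these 5 differences lay between 0.7197 and 0.7983. Without chow wild type 2, Dnajb9 was at -0.042 in the mean and Sdf2l1 at 0.87 in the difference. Leaving out 1 library moved 15 of the 20 knockout effects named for the 5 smallest p by over 1.5 times and turned the sign of 0.

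The folding genes shared a sign in these comparisons. On chow 0 of 14 had a knockout effect above 0 (50.1% of all genes), on high-fat diet 13 of 14 (51.1%), and in the difference 14 of 14 (50.7%). These genes varied together from library to library, so the counts are not of independent genes. The count in the difference follows largely from those on chow and on high-fat diet. The medians of the folding genes were -0.39, 0.25 and 0.58 on the log2 scale, and over all genes each median was within 0.01 of 0. Leaving out single libraries moved these medians but turned none of their signs. Without chow wild type 2 the chow median was -0.10, and without chow knockout 4 it was -0.63. Without high-fat wild type 1 the median on high-fat diet was 0.42, and without high-fat knockout 3 it was 0.15.

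Sinusoidal endothelial, stellate and Kupffer cell markers, picked from 11 cell type lists, had signs mostly opposite to those of the folding genes. The 3 neutrophil markers tested shared this pattern: 3 were above 0 on chow, and 3 below 0 on high-fat diet and in the difference. Lipid-associated macrophage markers shared it in part, with 11 of 11 below 0 on high-fat diet but only 6 above 0 on chow. Hepatocyte and B and plasma cell markers did not share it. Of 10 B and plasma cell markers tested, 10 had a knockout effect above 0 on both diets. Of 16 hepatocyte markers, 8 did on chow and 9 on high-fat diet. Of 13 sinusoidal endothelial markers, the knockout effect was above 0 for 13 on chow and below 0 for 11 on high-fat diet, and the difference was below 0 for 13. Their medians were 0.35, -0.36 and -0.76 on the log2 scale, and 7, 9 and 10 of the 13 had an unadjusted p under 0.05, although 0 passed by edgeR. Their sum was 248 to 309 CPM in wild type and 330 to 384 CPM in knockout on chow, without overlap, and 306.5 to 400.2 CPM and 260.0 to 330 CPM on high-fat diet. Stellate and fibroblast markers were above 0 for 14 of 14 on chow, below 0 for 13 on high-fat diet and below 0 for 14 in the difference, and Kupffer cell markers for 14, 12 and 13 of 14. Kupffer sums were 175 to 353.5 CPM in wild type and 329 to 385.5 CPM in knockout on chow, and 432 to 793 and 416 to 779 CPM on high-fat diet. The part of these markers in the signs of the folding genes was not tested.

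The 3 genes with a miR-33 seed match passed in no knockout comparison, and whether they differ from the other members was not tested. On chow Dnajb11, Dnajc3 and Sel1l had log2 fold changes of -0.32 ± 0.22, -0.11 ± 0.14 and -0.25 ± 0.14, and on high-fat diet 0.19 ± 0.19, 0.19 ± 0.12 and 0.04 ± 0.12.

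**Figure D4:**
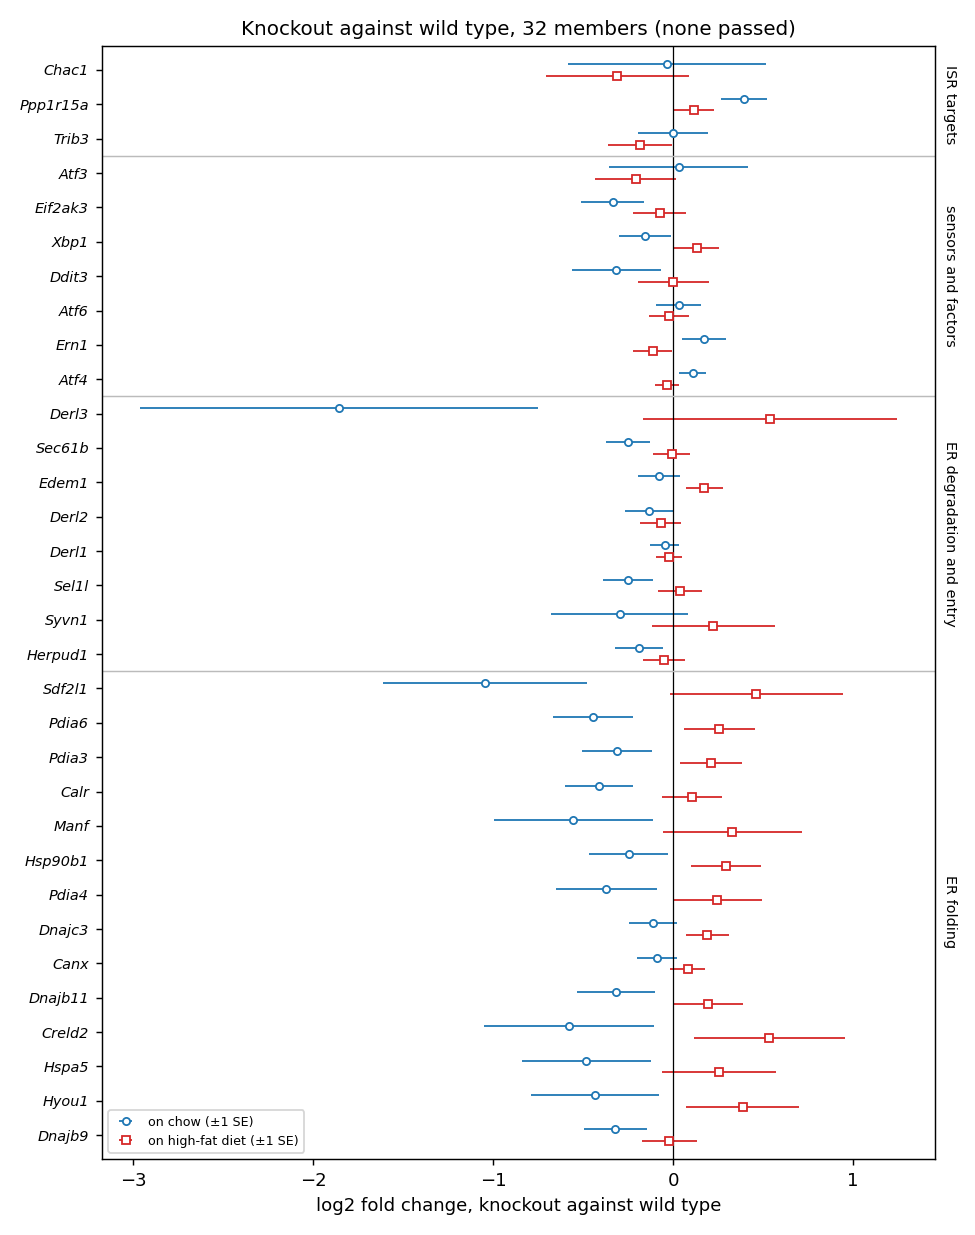
Log2 fold change of knockout against wild type (x axis) for 32 genes grouped by role (y axis), on chow (circles) and high-fat diet (squares), with bars of 1 standard error. No gene passed; the folding genes lie left of 0 on chow and, except Dnajb9, right of 0 on high-fat diet.

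Other genes of the pathway were taken from lists chosen by function. For these lists, here and in the next paragraphs, the shares over all genes were 15.2% higher and 14.2% lower in wild type. In knockout they were 17.4% higher and 16.2% lower. No list was tested against these shares. Of 25 other ER folding genes, 2 rose and 7 fell in wild type and 6 rose and 3 fell in knockout. Dnajc10, a disulfide reductase of the ER, rose in both, from 25.6 ± 1.9 (SD, n = 3) to 39.1 ± 4.5 CPM (n = 4) in wild type (log2 0.61 ± 0.11) and with a log2 fold change of 0.63 ± 0.09 in knockout. Fkbp7, an ER prolyl isomerase, rose by 0.72 ± 0.23 and 0.76 ± 0.20 on the log2 scale. Pdia5 fell in wild type (log2 -0.75 ± 0.23), and Ppib, a cyclophilin, rose in knockout (log2 0.52 ± 0.09). Fkbp7 lost its wild-type call without chow wild type 1 or 2 or high-fat wild type 2 or 3, and Pdia5 lost it without chow wild type 2 or 3 or high-fat wild type 3.

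Of 22 other degradation genes, 0 rose and 11 fell in wild type, and 2 rose and 10 fell in knockout, with medians of -0.23 and -0.18. March6, a ubiquitin ligase of the ER membrane, fell from 285 ± 38 to 177 ± 9.0 CPM in wild type (log2 -0.69 ± 0.10) and by 0.60 ± 0.08 in knockout. Selenos fell in wild type (log2 -0.67 ± 0.13) and Selenok, another selenoprotein of the ER membrane, rose in knockout (log2 0.60 ± 0.13). Among 35 translocon and glycosylation genes, 3 rose and 5 fell in wild type, and 13 rose and 2 fell in knockout. Ddost, Ostc and Krtcap2, subunits of the oligosaccharyltransferase, rose in knockout by 0.53 ± 0.09, 0.55 ± 0.13 and 0.57 ± 0.13 on the log2 scale. In wild type Srprb, Stt3b and Ssr2 fell by 0.38 ± 0.13, 0.34 ± 0.10 and 0.33 ± 0.10, and leaving out chow wild type 2 ended all 3 calls. The call of Srprb also ended without any other wild-type library except high-fat 1, and that of Ssr2 without chow wild type 3 or high-fat wild type 4.

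Of 39 other Atf4 targets tested, 6 rose and 6 fell in wild type, and 11 rose and 4 fell in knockout. Tnfrsf10b, a death receptor, rose by 2.05 ± 0.34 and 2.58 ± 0.31 on the log2 scale, and Nupr1, a stress-induced nuclear protein, by 1.86 ± 0.50 and 1.99 ± 0.44. Cth, which makes cysteine from cystathionine, fell from 418 ± 112 to 170 ± 32 CPM in knockout. Slc7a11, the cystine transporter, was at 0 counts after rounding in all 3 chow wild-type libraries. In high-fat wild type it stood at 1.23 ± 1.25 CPM (n = 4), so its level was uneven between libraries. That mean is 7.46 times a floor of 3 counts in each chow library. Among 27 genes of eIF2 and of ER-bound factors, 2 rose and 6 fell in wild type, and 2 rose and 5 fell in knockout. Creb3l3, a liver factor of the ER membrane, fell from 433 ± 32 to 260.1 ± 8.9 CPM in wild type (log2 -0.73 ± 0.07) and by 0.58 ± 0.06 in knockout, while Creb3l1 rose by 2.40 ± 0.30 and 1.97 ± 0.25. Eif2b1 and Eif2b5, subunits of the exchange factor for eIF2, fell, the former by 0.46 ± 0.08 in wild type and the latter by 0.29 ± 0.07 in knockout.

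In the cytosol, 2 of 20 heat shock genes rose and 8 fell in wild type, and 2 rose and 6 fell in knockout. Hspb1, a small heat shock protein, rose by 1.63 ± 0.26 and 1.38 ± 0.22 on the log2 scale. Hspa1b, which has a near-identical copy in Hspa1a and is therefore uncertain, fell by 1.55 ± 0.42 and 1.24 ± 0.37. The wild-type calls of Hspa1b and Hsph1 (log2 -0.99 ± 0.31) ended when chow wild type 2 was left out, that of Hsph1 also without high-fat wild type 2, 3 or 4, and the knockout call of Hspa1b without chow knockout 4 or high-fat knockout 3. Hspa4l rose in knockout by 1.20 ± 0.19. Of 12 genes of the mitochondrial response, 1 rose and 4 fell in wild type, and 1 rose and 3 fell in knockout. Dnaja3, a mitochondrial cochaperone, fell by 0.48 ± 0.08 and 0.42 ± 0.07, Clpp and Htra2, proteases, fell in wild type by 0.56 ± 0.08 and 0.43 ± 0.13 (the latter not without chow wild type 2), and Clpx fell in knockout by 0.62 ± 0.11. In knockout the gene of the list that rose was Hspa14 (log2 0.62 ± 0.10), which encodes a cytosolic Hsp70 protein that works at the ribosome and is not a gene of the mitochondrial response.

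Markers of other cell types moved with the diet beside these genes. Over all genes, 15.2% were called higher and 14.2% lower in wild type, and 17.4% and 16.2% in knockout. Of 16 hepatocyte markers 12 fell in wild type and 9 in knockout, and their sum ran from 121300 to 134800 CPM on chow and from 92050 to 113700 CPM on high-fat diet. Stellate and fibroblast markers summed to 252 to 388 CPM on chow and 530.4 to 874 CPM on high-fat diet, and 13 of 14 were called higher in wild type and 11 in knockout. Kupffer cell markers summed to 175 to 386 CPM on chow and 416 to 793 CPM on high-fat diet, and markers of lipid-associated macrophages to 309.8 to 387 and 484 to 764 CPM. No marker of these 4 lists was at 0 throughout a group. Kupffer cell markers and some other lists were called in unequal numbers in the genotypes. Of 14 Kupffer cell markers, 10 were called higher and 0 lower in wild type, and 5 higher and 1 lower in knockout. Of 13 sinusoidal endothelial markers, 6 were called higher and 0 lower in wild type, and 0 higher and 4 lower in knockout. Of 3 neutrophil markers tested, 3 were called higher in wild type and 0 in knockout, and Mpo was at 0 in every chow wild-type library. Of 6 erythroid markers tested, 5 were called higher in wild type and 0 in knockout, with sums of 516 to 620.5 CPM on chow and 918 to 2162 CPM on high-fat diet in wild type, and 498 to 618 and 514 to 1961 CPM in knockout. Of 14 circadian genes tested, 3 rose and 5 fell in wild type and 4 rose and 4 fell in knockout. The part of any of these lists in the diet effects was not tested.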

How the data were processed

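Liver RNA was depleted of ribosomal RNA with Ribo-Zero, aligned with TopHat2 and quantified with Cuffdiff, per the labels' protocols; mm10 is the build named in the submitters' processing notes. No source used here gives tool versions or the strand setting. Estimated counts per gene were deposited in 16 library columns, all matched to a sample. The labels do not say how they were derived, and between 32.8% and 37.9% of a library's values were whole (tolerance 0). Values were rounded, genes with low counts were removed with edgeR's filterByExpr (edgeR 4.0.16, R 4.3.3), and library sizes were scaled by TMM. One model with a mean per group was fitted to all 16 libraries (12 residual degrees of freedom) with robust quasi-likelihood tests, two-sided, and p-values were adjusted by Benjamini-Hochberg over all 16830 genes; SE is the absolute log2 fold change over the square root of F. The code was checked on simulated counts. In the draw made there, false calls were a larger share of the calls than the nominal rate, so calls with an adjusted p near the threshold may be liberal.

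Depth was 15888436 to 29469645 estimated counts per library, which limits genes near 1 CPM. Exon lengths and positions came from GENCODE M21, promoters and the microRNA from RefSeq. Fold changes are named for members that passed in either diet comparison, else for the 5 smallest p, and, per pathway list and diet comparison, for up to 3 passing genes with the largest change and at least 1 CPM. One gene that this rule names is not reported here. A few other members are named after their values were seen: Ern1, Atf6, Xbp1, Ddit3, Syvn1, Hspa5 and the seed-match genes. The members and lists were chosen with earlier results of these data known. Alternatives were DESeq2 1.42.0, limma 3.58.1 with voom, other scaling factors, other filters, fits of the compared groups alone, and leaving out libraries. The median of the folding members under these alternatives was added after seeing the data.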

Additional observations from a re-analysis of the deposited data

Results flagged for a closer look

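Over 99 sets of values (33 genes in the 3 groups of 4 or 5 libraries), 8 held a library whose gap to the nearest other was large against the range of the group. Chance gives about 1 in 20 such sets, and genes that vary together are not independent. High-fat wild type 1 was such a library for 5 genes. There Chac1 stood at 8.45 CPM (next 5.73), Creld2, an ER protein, at 30.5 CPM (next 14.8), Derl3 at 8.48 CPM (next 2.66), Pdia4 at 262 CPM (next 173) and Syvn1 at 38.1 CPM (next 22.4). In chow knockout 4, Hsp90b1 stood at 748 CPM (next 533). In chow knockout 3, Derl2 was lowest at 37.6 CPM (next 50.1). In high-fat knockout 1, Eif2ak3 was lowest at 17.9 CPM (next 23.6).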

How the results depend on the processing

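Of the counts of called members under all alternatives, 292 stayed within 1.5 times the main count and 4 did not, each of the 4 with 1 library left out. Most of the 292 belong to the knockout comparisons, where the count was 0 throughout, so this total says little about the diet counts. The number of members called higher on high-fat diet in knockout, 8, ran from 5 to 11 when 1 library was left out, with 5 without chow knockout 1, 2 or 3. The number called lower in wild type, 4, ran from 3 to 7, with 7 without high-fat wild type 1. The number of members called in any knockout comparison stayed 0 under every alternative run. Of the gene values, 6 changed sign, all in wild type and all far from passing: Sdf2l1 (log2 0.10) ran from -0.26 to 0.74 and Pdia3 (log2 -0.04) from -0.17 to 0.10 when 1 library was left out. They were negative for Sdf2l1 without chow wild type 1 (-0.26) or 3 (-0.0095) or high-fat wild type 1 (-0.16), and positive for Pdia3 without chow wild type 2 (0.10) or high-fat wild type 2 (0.028) or 3 (0.017). The causes were not tested beyond the smaller number of libraries. Without a low-count filter Srprb lost its wild-type call (adjusted p 0.0531), and with the compared groups alone Hspa1b did (adjusted p 0.0588). No paired analysis was possible because the labels carry no replicate numbers. Depth limits Derl3, Atf3, Chac1 and Asns most.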
